A study of Mus musculus with 54 samples.

Results

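Prrx1, Twist1, Twist2, Snai2, Tbx15 and Meox1 are 6 transcription factor genes of embryonic mesenchyme, and their replication timing was followed here across embryonic fibroblasts, neural precursors, embryonic stem cells and extraembryonic endoderm of F1 hybrid mice. The members were given by name, and every window of the deposited timing table that overlaps one of their gene bodies on mm10 was taken: 11 windows of 50 kb, of 43941 autosomal windows, for 6 of 18573 autosomal protein-coding genes. Prrx1 (gene ID 18933, chr1:163245119-163315145, minus strand) covers 3 windows and Tbx15 (gene ID 21384, chr3:99240348-99354260) covers 4. Twist1 (gene ID 22160, chr12:33957671-33959831, plus strand), Twist2 (gene ID 13345, chr1:91801461-91848034, plus strand), Snai2 (gene ID 20583, chr16:14705852-14709395) and Meox1 (gene ID 17285, chr11:101877510-101894354) lie in 1 window each. Values below are those of the window that holds the gene start, with the other windows of Prrx1 and Tbx15 given beside them. Where the annotation used gives no strand (Snai2, Tbx15 and Meox1), the lower coordinate stands for the start.

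Repli-Seq labels newly made DNA with BrdU, sorts cells into early and late S phase and sequences the labelled DNA of each fraction. A positive value, on a scale read here as log2, means more signal in the early than in the late fraction. In F1 hybrids the reads can be given to either parental genome, so each of the 27 profiles has 1 column per allele, and timing is here the mean of both. Mouse embryonic fibroblasts (MEFs) were taken from 4 embryos of a cross labelled cas / 129, with 2 profiles per embryo. Embryos 1 and 2 carry a female label and embryos 3 and 4 a male one. The neural precursor cells (NPCs) had been differentiated for 11 days from lines F121-9 (1 profile, female, 129 / cas) and Cas129 (2 profiles, female, cas / 129). The embryonic stem cells (ESCs) of 129 and Cas (Mus castaneus) came from 5 lines. F121 (1 profile), F121-6 (4 profiles) and F121-9 (4 profiles) are female and F123 (2 profiles) male, all of the cross 129 / cas, and Cas129 (2 profiles) is female and of the cross cas / 129. F121-6 and F121-9 were grown both on feeders, which are mitotically inactivated MEFs, and without feeders in 2i, a medium with inhibitors of MEK and GSK3. The other lines are from 2i, and the line values of F121-6 and F121-9 below average both media unless 2i is named. V6.5 ESCs (1 profile, male, C57B6 / 129, 2i) and XEN cells, an extraembryonic endoderm line (2 profiles, female, C57B6 / cas), have other parents and enter no test. All MEF embryos share 1 cross direction, so strain and parent of origin cannot be told apart in MEFs.

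Mesenchyme is the loose embryonic tissue that gives rise to connective tissue, bone, cartilage and fibroblasts. Twist1 and Twist2 are basic helix-loop-helix factors that bind E-boxes, and Snai2 (Slug) is a zinc finger repressor. Members of both families act in the epithelial-to-mesenchymal transition, in part by repressing the cadherin gene Cdh1, and in the neural crest. Prrx1 is a paired-type homeobox factor of limb and facial mesenchyme, Meox1 a homeobox factor of the somites, and Tbx15 a T-box factor of skeletal and dermal mesenchyme. Replication timing is set over large domains, and many developmental genes lie in domains that shift between late and early S phase as cells differentiate.

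RefSeq promoter sequences on GRCm38.p6, the build known as mm10, were at hand for 3 of the 6 members. They are shown because these 3 genes also had the largest differences between MEFs and ESCs as deposited. Each run is 300 bases long, 5′ to 3′ on the strand of the gene, with every CG dinucleotide in capitals.
Prrx1: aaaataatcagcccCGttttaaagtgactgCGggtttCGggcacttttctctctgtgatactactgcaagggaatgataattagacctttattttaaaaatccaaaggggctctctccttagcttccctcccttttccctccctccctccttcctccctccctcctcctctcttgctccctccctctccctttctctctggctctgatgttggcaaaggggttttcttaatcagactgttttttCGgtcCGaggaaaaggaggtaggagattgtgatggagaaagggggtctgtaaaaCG
Twist1: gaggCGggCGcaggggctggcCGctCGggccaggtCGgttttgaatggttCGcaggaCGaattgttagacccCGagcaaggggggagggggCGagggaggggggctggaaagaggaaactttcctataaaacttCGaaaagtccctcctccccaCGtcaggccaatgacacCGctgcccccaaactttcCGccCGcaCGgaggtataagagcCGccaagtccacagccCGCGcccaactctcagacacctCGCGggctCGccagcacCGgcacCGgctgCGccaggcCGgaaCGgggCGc
Twist2: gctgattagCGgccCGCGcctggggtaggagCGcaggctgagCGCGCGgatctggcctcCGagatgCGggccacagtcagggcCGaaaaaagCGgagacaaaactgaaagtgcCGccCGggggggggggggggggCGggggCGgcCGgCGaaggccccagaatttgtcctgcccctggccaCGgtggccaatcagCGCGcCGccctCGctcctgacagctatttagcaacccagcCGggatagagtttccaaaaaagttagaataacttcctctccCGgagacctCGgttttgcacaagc
The Prrx1 sequence (chr1:163313601-163313900, minus strand) holds 6 CG dinucleotides and 47.7% G and C. This run begins 1245 bases inside the gene body, counted from the gene start used for the timing window, whereas the other 2 runs span the gene start. The Twist1 sequence (chr12:33957421-33957720, plus strand) holds 27 CG dinucleotides and 66.0% G and C, and the Twist2 sequence (chr1:91801211-91801510, plus strand) holds 25 and 64.7%. Over the 32851 promoters of the table the median was 7 CG dinucleotides, and 15.5% of promoters held at least as many as Twist1, 18.4% as many as Twist2 and 56.4% as many as Prrx1. The E-box CANNTG, a pattern that is the same on both strands, was found 0 times in each of the 3 sequences, while 72.3% of all promoters of the table hold it at least once. The data carry no binding or methylation at these sequences, so this is a description of the letters alone.

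Several facts of the whole series bear on the values. By their autosomal means the columns fall into 2 sets, with a median profile mean of -0.15 in the 10 MEF and XEN profiles and of -0.60 in the 17 ESC and NPC profiles, so MEFs stand in another set than the ESCs and NPCs they are compared with. Over all autosomal windows the median MEF minus ESC difference was 0.38 as deposited, -0.26 after each column was centred on its median and -0.06 after quantile normalization. For MEF minus NPC these medians were 0.35, -0.29 and -0.06. Differences are therefore also given relative to the median of all windows. A percentile, the rank of a window among all autosomal windows of the same line with 100 as the earliest, is untouched by centring. The tracks of the X chromosome went against the sex labels of 2 embryos and of V6.5. The 129 track was flat, as in embryo 4 (SD 0.19 to 0.27), in embryo 1, which is labelled female (SD 0.25 to 0.30), and not flat in embryo 3, which is labelled male (SD 1.32 to 1.34). In V6.5, also labelled male, neither track was flat (SD 2.27 for each allele), while the Cas track of male F123 was (SD 0.17 to 0.18). Marker genes fixed for each cell type were read by their timing. Of 6 ESC markers 5 were earliest in ESCs, of 6 NPC markers 5 in NPCs, of 6 fibroblast markers 3 in MEFs and of 5 measured XEN markers 5 in XEN cells. Read depth is unknown, since the table holds no counts. In bulk cultures a shift in all cells and a mixture of cells with different timing cannot be told apart.

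All 6 members replicated earlier in MEFs than in ESCs, and the 4 MEF embryos lay above the 5 ESC lines and the 2 NPC lines at each of them. Prrx1 and the Twist genes stood furthest apart. In NPCs the genes went different ways: Twist1 and Twist2 were earlier and Snai2 later than in ESCs. In limma over all autosomal windows, a call needed a size of 1 or more and an adjusted p below 0.05. On that rule 6 of 6 members were earlier in MEFs than in ESCs, where 30.3% of all windows were earlier, 13.7% later and 44.0% called in either direction. Of all windows called in that comparison 68.8% were earlier in MEFs as deposited, 39.5% after median centring and 47.9% after quantile normalization. Under both of these scalings 4 of 6 members passed: Prrx1, Twist1, Twist2 and Tbx15. Of all windows 18.6% were called earlier in MEFs after median centring and 20.6% after quantile normalization. Windows with every MEF embryo above every ESC line made up 42.6% of the autosomes, and those with every MEF embryo above every NPC line 50.6%. With all 11 windows of the members, 11 were called earlier in MEFs than in ESCs. The members were chosen with earlier results of these data known, so their counts describe the chosen genes alone. The test measures the spread between lines or embryos, and the labels do not say whether the profiles of a line are separate cultures.

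**Figure D1:**
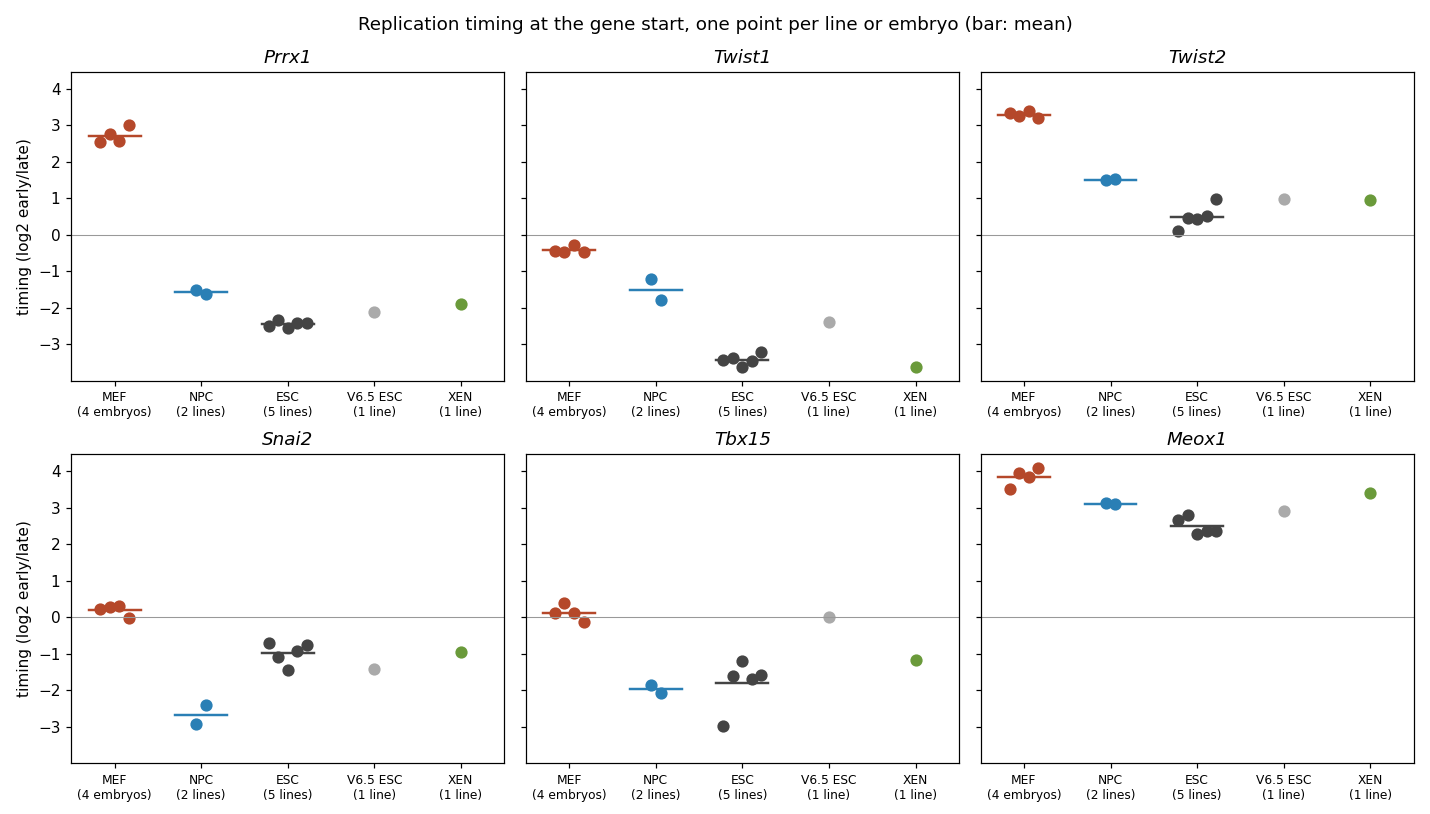
Timing (y axis, log2 early/late) in the window of the gene start of each member, with 1 point per line or embryo and a bar at the mean of the MEF embryos, NPC lines and ESC lines. The MEF points lie above the NPC and ESC points in all 6 panels, from Prrx1 (MEF mean 2.72, ESC mean -2.45) to Meox1 (MEF mean 3.84, ESC mean 2.49).

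Among the helix-loop-helix factors, Twist1 was late in ESCs and near the middle of S phase in MEFs. Its timing was -0.43, -0.48, -0.28 and -0.46 in MEF embryos 1 to 4, -1.78 in F121-9 and -1.22 in Cas129 NPCs, and -3.36 in F121, -3.61 in F121-6, -3.46 in F121-9, -3.20 in F123 and -3.43 in Cas129 ESCs. On the deposited scale the 3 groups did not overlap and ran from ESCs through NPCs to MEFs. By percentile MEFs and NPCs overlapped, with 44.1 in embryo 2 and 44.3 in Cas129 NPCs. The mean percentile was 45.7 in MEFs, 40.8 in NPCs and 14.8 in ESCs. The MEF minus ESC difference was 3.0 ± 0.16 (SE, 4 embryos and 5 lines, limma adjusted p = 7.86e-11), or 2.62 above the median of all windows. Twist1 was also earlier in NPCs than in ESCs, by 1.91 ± 0.20 (adjusted p = 8.12e-07). The MEF minus NPC difference of 1.09 ± 0.20 passed as deposited (adjusted p = 2.87e-04) but not after median centring (0.46, adjusted p = 0.0871) or quantile normalization (0.49, adjusted p = 0.0664). Without the F121-9 NPCs it was 0.81 and below the size asked for.

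Twist2 was earlier than Twist1 in every cell type. Its timing was 3.34, 3.25, 3.39 and 3.20 in MEF embryos 1 to 4, 1.52 in F121-9 and 1.49 in Cas129 NPCs, and 0.47 in F121, 0.43 in F121-6, 0.53 in F121-9, 0.97 in F123 and 0.12 in Cas129 ESCs. These groups did not overlap either, and mean percentiles were 93.1 in MEFs, 74.1 in NPCs and 62.3 in ESCs. The MEF minus ESC difference was 2.79 ± 0.17 (adjusted p = 3.91e-10), 2.41 above the median of all windows. Against NPCs the MEFs were earlier by 1.79 ± 0.22 (adjusted p = 4.26e-06). The NPC minus ESC difference of 1.00 ± 0.21 (adjusted p = 7.77e-04) sat at the size asked for and fell below it under 8 of the alternatives that kept that size, with values of 0.91 to 0.99 there.

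Snai2 was the member that was later in NPCs than in ESCs. Its timing was 0.21, 0.27, 0.30 and -0.02 in MEF embryos 1 to 4, -2.41 in F121-9 and -2.93 in Cas129 NPCs, and -1.09 in F121, -1.44 in F121-6, -0.94 in F121-9, -0.75 in F123 and -0.71 in Cas129 ESCs. ESCs lay between the other two groups without overlap. Mean percentiles were 52.4 in MEFs, 26.2 in NPCs and 46.9 in ESCs. The NPC minus ESC difference was -1.68 ± 0.23 (limma adjusted p = 1.29e-05), and 16.1% of all windows were called later in NPCs. MEFs were earlier than NPCs by 2.86 ± 0.23 (adjusted p = 6.99e-08). The MEF minus ESC difference of 1.18 ± 0.18 (adjusted p = 2.37e-05) exceeded the median of all windows by 0.79, and it was 0.53 and not called after either scaling.

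Of the homeobox genes, Prrx1 had the largest MEF minus ESC difference of the 6. Its timing was 2.55, 2.76, 2.56 and 3.01 in MEF embryos 1 to 4, -1.61 in F121-9 and -1.52 in Cas129 NPCs, and -2.33 in F121, -2.56 in F121-6, -2.42 in F121-9, -2.42 in F123 and -2.50 in Cas129 ESCs. The gene was early in all MEF embryos and late in all NPC and ESC lines, with mean percentiles of 85.1 in MEFs, 40.1 in NPCs and 30.7 in ESCs. The MEF minus ESC difference was 5.16 ± 0.15 (adjusted p = 2.80e-13) at the start, and 5.0 and 4.84 in the other 2 windows of the gene. MEFs were earlier than NPCs by 4.28 ± 0.19 (adjusted p = 2.54e-10). The NPC minus ESC difference of 0.88 ± 0.18 (adjusted p = 7.92e-04) was below the size asked for.

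Meox1 was early everywhere. Its timing was 3.52, 3.94, 3.84 and 4.08 in MEF embryos 1 to 4, 3.09 in F121-9 and 3.13 in Cas129 NPCs, and 2.79 in F121, 2.27 in F121-6, 2.37 in F121-9, 2.37 in F123 and 2.66 in Cas129 ESCs. The 3 groups did not overlap, yet they span a narrow part of the scale, with mean percentiles of 98.9 in MEFs, 95.8 in NPCs and 87.9 in ESCs. The MEF minus ESC difference was 1.35 ± 0.17 (adjusted p = 1.98e-06), 0.97 above the median of all windows, and it was not called after median centring (0.71) or quantile normalization (0.83). NPCs and ESCs differed by 0.61 ± 0.21 (adjusted p = 0.0204) and MEFs and NPCs by 0.74 ± 0.21 (adjusted p = 0.00873), both below the size asked for. The MEF minus NPC difference was 0.39 above the median of all windows and ran from 0.10 to 0.90 over the alternatives.

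Tbx15, the T-box member, was at mid S phase in MEFs and late in NPCs and ESCs. Its timing was 0.11, 0.38, 0.11 and -0.14 in MEF embryos 1 to 4, -2.08 in F121-9 and -1.87 in Cas129 NPCs, and -1.61 in F121, -1.21 in F121-6, -1.70 in F121-9, -1.57 in F123 and -2.97 in Cas129 ESCs. The NPC lines lay within the range of the ESC lines, and Cas129 ESCs had the latest value of the 5 ESC lines. Mean percentiles were 51.7 in MEFs, 35.3 in NPCs and 37.9 in ESCs. MEFs were earlier than ESCs by 1.93 ± 0.27 (adjusted p = 9.21e-06), 1.54 above the median of all windows, and by 1.88 to 2.14 in the other 3 windows of the gene. Without Cas129 ESCs the difference was 1.64 and with 2i profiles alone it was 1.62, and it passed in both. MEFs were earlier than NPCs by 2.09 ± 0.35 (adjusted p = 1.14e-04). The NPC minus ESC difference was -0.16 ± 0.34 (adjusted p = 0.713).

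In counts over members, 5 of 6 were called earlier in MEFs than in NPCs, where 25.7% of all windows were (7.64% were called later). Of all windows called in that comparison 77.1% were earlier in MEFs as deposited, 38.7% after median centring and 50.6% after quantile normalization. Under both scalings 4 of 6 members passed, Twist1 no longer. Windows called earlier in MEFs made up 13.3% of all windows after median centring and 15.3% after quantile normalization. Between NPCs and ESCs, 2 of 6 members were called earlier in NPCs, where 16.4% of all windows were, and 1 of 6 later. Both NPC lines lay above every ESC line at 4 members, which held for 28.7% of all windows, and below every ESC line at Snai2, which held for 25.9%. F121-9 and Cas129 stand in both the NPC and the ESC group. Fitted against these parent lines alone, with the line as a covariate, the same genes Twist1 (1.94), Twist2 (1.18) and Snai2 (-1.85) were called.

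The members sit in domains of different extent. Adjacent windows called in the same direction as the gene start, with gaps of at most 2 windows bridged, were joined into regions. For MEF minus ESC, the Prrx1 region measured 2050 kb (chr1:161850001-163900000) with a mean difference of 4.13 and 19 protein-coding genes, among them Dnm3, Myoc and Kifap3. Its largest difference, 5.91, lay at -1090 kb from the Prrx1 start along the chromosome. The Twist2 region also measured 2050 kb (chr1:90050001-92100000) and held 22 genes, among them Col6a3, Per2 and Hdac4. Its largest difference of 4.12 lay at -976 kb from the Twist2 start. The Tbx15 region measured 2900 kb (chr3:97500001-100400000) as deposited and 1450 kb after either scaling, with Wars2 and Spag17 beside Tbx15 and Notch2 further off. Snai2 lay at the edge of a region of 650 kb that it shared with Efcab1 (chr16:14700001-15350000), with the largest difference of 2.64 at 319 kb from its start. The Meox1 region measured 500 kb and had a mean difference of 1.14. After either scaling the start windows of Snai2 and Meox1 were not called, so no region was drawn from them. The other windows of these regions were not followed there.

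For Twist1 the extent could not be measured. Of the windows within 1000 kb of its start, 20 are in the table, against 39 to 41 for the other members, and the called run of 150 kb (Ferd3l and Twist1) ends where windows are missing on both sides. The nearest window in the table downstream, 267.3 kb away, averaged 0.11 in MEFs, -1.13 in NPCs and -3.57 in ESCs, and the nearest upstream, at -632.7 kb, averaged 0.13 in MEFs, 0.24 in NPCs and 0.46 in ESCs. MEFs were thus earlier than ESCs at the downstream window, and the 3 cell types lay close together at the upstream one. Twist1 had 2 other protein-coding genes within 500 kb, Snai2 and Tbx15 5 each, Prrx1 9, Twist2 10 and Meox1 37, against a median of 16 over all genes.

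**Figure D2:**
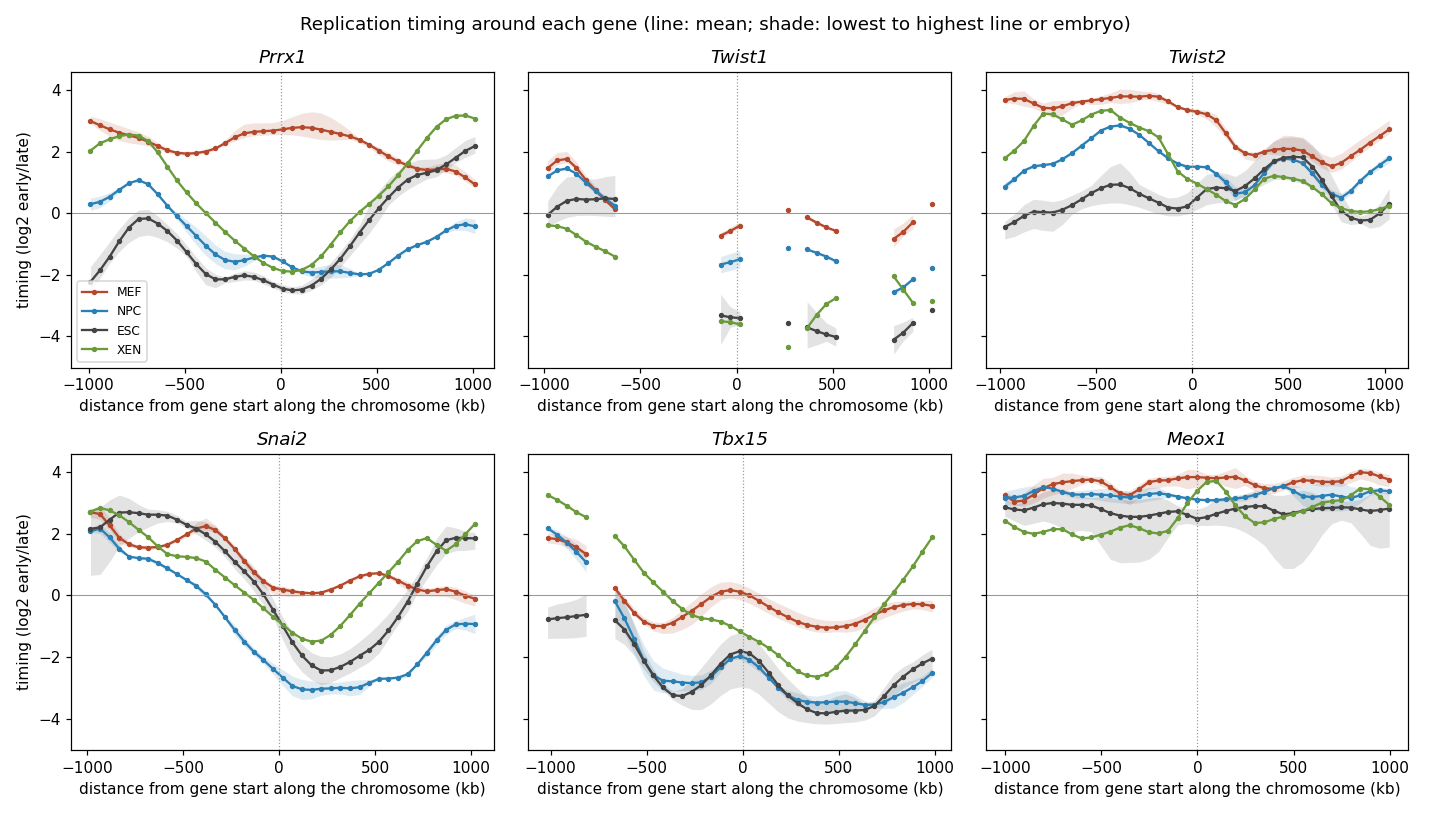
Mean timing (y axis, log2 early/late) against the distance of each 50 kb window from the gene start along the chromosome (x axis, kb) for MEF, NPC, ESC and XEN, with shading from the lowest to the highest line or embryo and lines broken where windows are missing. Around Prrx1 the MEF line stays between 0.93 and 2.99 while the ESC line falls as low as -2.51, and around Meox1 all lines stay at or above 1.85.

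In NPCs the Snai2 gene lay in a later-replicating region of 1000 kb (chr16:13850001-14850000) relative to ESCs, with a mean difference of -1.77 and 11 genes, among them Myh11, the smooth muscle myosin heavy chain. The Twist2 region earlier in NPCs than in ESCs measured 1200 kb. Against NPCs the MEF regions measured 1500 kb at Snai2 and 1650 kb at Tbx15. At Prrx1 the MEF minus NPC region was 3250 kb as deposited and 1550 kb after median centring. At Twist2 it was 1850 kb as deposited, 350 kb after median centring and 500 kb after quantile normalization.

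The alleles were compared as 129 minus Cas, so that a positive value means an earlier 129 allele. Within a cell type limma called 0 of 6 members at a size of 0.5 or more. In MEFs 12.9% of all windows were called (5.5% with an earlier 129 allele, 7.36% with an earlier Cas allele), in NPCs 4.71% (2.47% and 2.24%) and in ESCs 25.2% (13.2% and 11.9%). At an unadjusted p below 0.05 there were 0 members in MEFs, 0 in NPCs and 3 in ESCs (Twist1, Twist2 and Meox1). Of the 43941 windows, 14551 in MEFs, 8547 in NPCs and 20955 in ESCs had such a p. The mean differences ran from -0.26 (Twist1) to 0.20 (Tbx15) in MEFs, from -0.26 (Twist2) to 0.32 (Twist1) in NPCs and from -0.22 (Snai2) to 0.43 (Twist1) in ESCs. At Prrx1, for one, the 129 allele averaged 2.76 ± 0.20 in MEFs (SD, 4 embryos) and -2.41 ± 0.18 in ESCs (SD, 5 lines), and the Cas allele 2.68 ± 0.27 in MEFs and -2.48 ± 0.18 in ESCs.

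Twist1 was the 1 member called for a change of its allelic difference between MEFs and ESCs, and that call was not stable. Its 129 minus Cas difference was -0.48, -0.04, 0.12 and -0.63 in MEF embryos 1 to 4, 1.01 in F121-9 and -0.37 in Cas129 NPCs, and 0.43 in F121, 0.43 in F121-6, 0.36 in F121-9, 0.56 in F123 and 0.38 in Cas129 ESCs. The 129 allele was the earlier one in all 5 ESC lines, and the MEF values lay below all ESC values. The 2 NPC lines had opposite signs, but the 2 Cas129 NPC profiles were themselves split, at 0.24 and -0.99. F121-9 NPCs have 1 profile. The mean was -0.26 ± 0.35 in MEFs (SD, 4 embryos) and 0.43 ± 0.08 in ESCs (SD, 5 lines). In ESCs the adjusted p was 0.0469 with a difference below the size asked for. The MEF minus ESC difference of the allelic difference was -0.69 ± 0.24 (limma adjusted p = 0.0454), so that 1 of 6 members was called lower, as were 15.1% of all windows, with 12.3% called higher. This call was lost after median centring (-0.62, adjusted p = 0.0632), after quantile normalization (-0.67, adjusted p = 0.0554), with 2i profiles alone (-0.63, adjusted p = 0.0738), without embryos 1 and 3 (-0.76, adjusted p = 0.128), with female lines only (-0.66, adjusted p = 0.211) and without any 1 of the 5 ESC lines or of embryos 1, 2 and 4. Repeat profiles were close in some lines and far apart in others. The 2 ESC profiles of Cas129 had timing values of -3.42 and -3.44 and allelic differences of -0.09 and 0.85, while those of F123 had timing values of -4.41 and -1.99 and allelic differences of -0.57 and 1.69. Over 13 ESC profiles the 129 allele was earlier in 10. For the allelic difference in MEF minus ESC, 2 members had an unadjusted limma p below 0.05, Twist1 and Snai2 (0.35 ± 0.16, adjusted p = 0.112). So did 17927 of the 43941 windows. For NPC minus ESC, limma called 0 of 6 members, and 16.1% of all windows in either direction (8.04% higher, 8.03% lower). At an unadjusted p below 0.05 there were 0 members and 13030 of the 43941 windows.

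**Figure D3:**
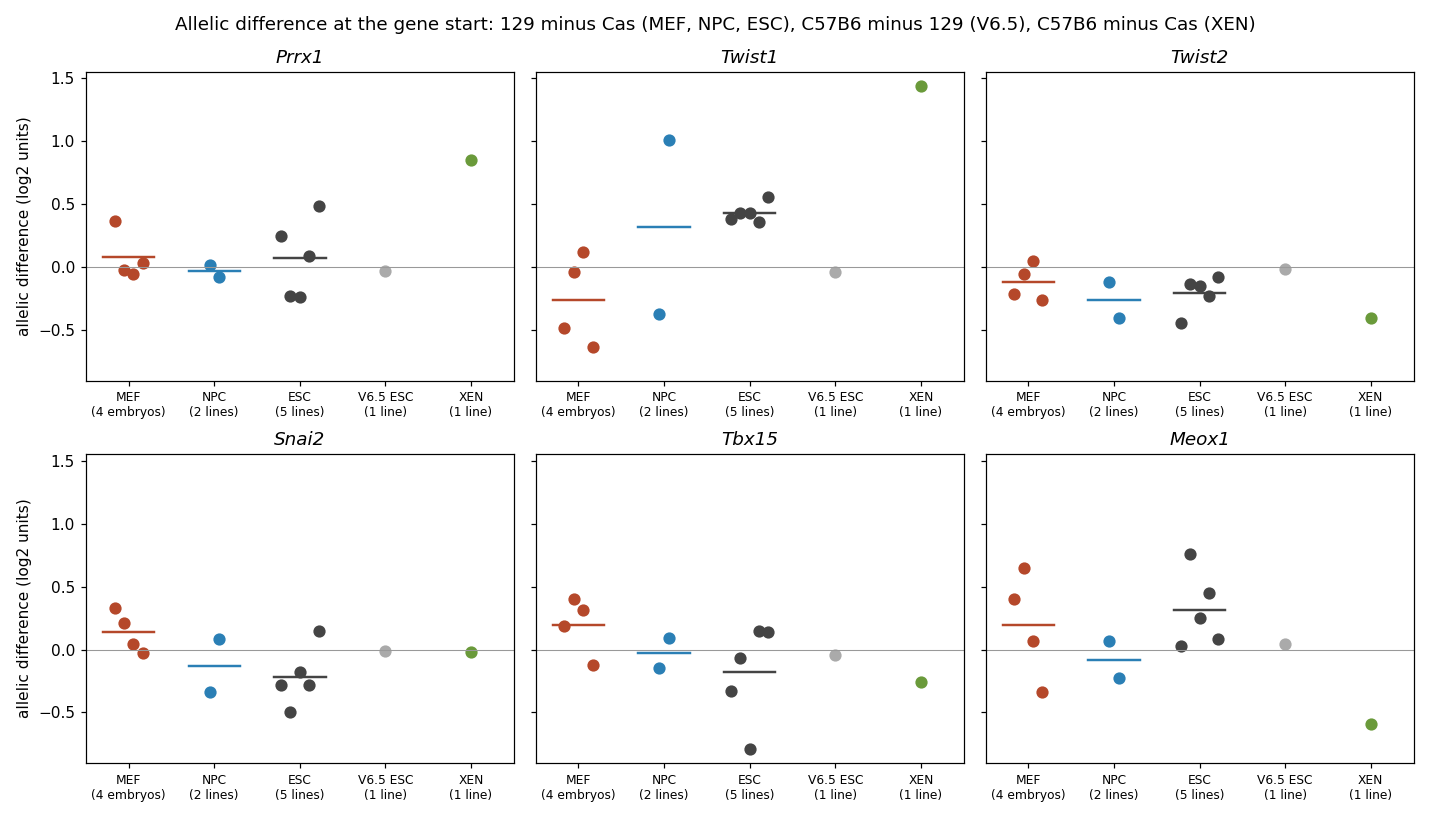
Allelic difference (y axis, log2 units) at the start window of each member, 1 point per line or embryo with a bar at the mean of the MEF embryos, NPC lines and ESC lines. For Twist1 the 5 ESC points lie between 0.36 and 0.56 and the 4 MEF points between -0.63 and 0.12, and XEN reaches 1.44.

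XEN cells carry C57B6 and Cas alleles, and V6.5 ESCs C57B6 and 129 alleles, so their values are descriptive. In XEN cells Twist1 was as late as in ESCs, at -3.24 and -3.99 in the 2 profiles, and Prrx1 was late at -2.07 and -1.69. Tbx15 had -1.12 and -1.22, Snai2 -0.87 and -1.03, Twist2 0.94 and 0.98, and Meox1 3.01 and 3.76. Of the 6 members, Meox1 alone was near the early end, with a percentile of 98.3, against 6.68 for Twist1 and 31.1 for Prrx1. All MEF embryos were earlier than both XEN profiles at 5 members, and at Meox1 the second XEN profile (3.76) lay within the range of the embryos (3.52 to 4.08).

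The C57B6 allele of Twist1 was earlier than the Cas allele in XEN cells, by 1.35 and 1.53 in the 2 profiles. A mean difference at least as large as that 1.44 was present in 3.58% of autosomal windows. At Prrx1 the C57B6 allele was earlier by 1.28 in 1 profile and by 0.42 in the other, and at Meox1 the Cas allele was earlier, with C57B6 minus Cas at -0.53 and -0.64. These 3 of 6 members had a mean difference of at least 0.5 in size, as did 32.8% of all windows. In V6.5 ESCs 0 of 6 members reached 0.5, and 3.68% of all windows did. C57B6 minus 129 was -0.04 to 0.04 at the members. V6.5 is labelled male, yet its X tracks had an SD of 2.27 for both alleles. How well its columns separate the alleles was not tested.

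V6.5 ESCs had timing values of -2.11 at Prrx1, -2.39 at Twist1, 0.99 at Twist2, -1.43 at Snai2, 0.00 at Tbx15 and 2.92 at Meox1. At 5 of 6 members, all but Snai2, this was above every ESC line of 129 and Cas in 2i, the medium of V6.5, as it was in 26.6% of all windows. The gap to the highest of the 5 lines in 2i was 0.81 at Twist1, 0.24 at Tbx15, 0.13 at Meox1, 0.11 at Prrx1 and 0.02 at Twist2. V6.5 has 1 profile, while most of these line values are means of repeat profiles. Single 2i profiles lay above V6.5 at Twist1 (-1.99 in F123), Twist2 (up to 1.04, in F123) and Meox1 (3.13 in Cas129), but not at Prrx1 or Tbx15.

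Culture on feeders was compared with 2i in the 2 lines grown in both, F121-6 and F121-9, over 8 profiles and with a term for the line. Profiles are the unit here, so the SE and p measure the spread between profiles and not between lines. Tbx15 was later on feeders in both lines. Its timing was -2.17 and -2.20 on feeders, against -0.12 and -0.35 in 2i, in F121-6, and -2.38 and -2.17 on feeders, against -1.33 and -0.89 in 2i, in F121-9. The media did not overlap in either line. The difference was -1.56 ± 0.23 (limma adjusted p = 0.00134), and all 4 windows of the gene were called, with -1.49, -1.30 and -0.96 in the other 3. Tbx15 was the 1 member of 6 called, where 7.86% of all windows were called later and 4.92% earlier on feeders. Over all windows 38.5% of the calls were earlier on feeders as deposited and 52.8% after median centring. The called region measured 400 kb (chr3:99000001-99400000) and held Tbx15 and Wars2, the mitochondrial tryptophanyl-tRNA synthetase gene. MEFs, the cell type used as feeders, had a mean of 0.12 at this window in the other scaling set, and the part of feeder cells in the result was not tested. The other 5 members had differences of -0.32 (Twist2) to 0.28 (Twist1), with unadjusted p above 0.05.

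**Figure D4:**
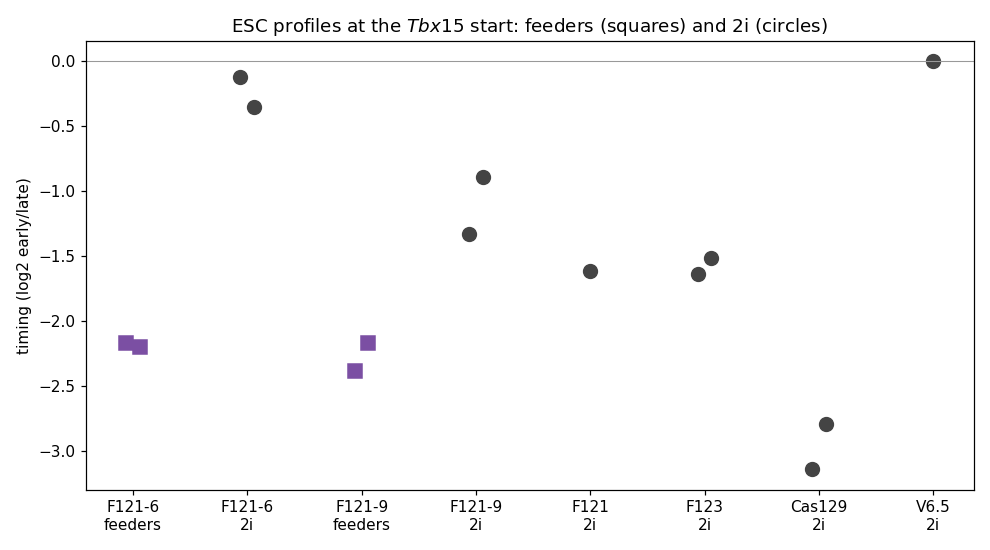
Timing (y axis, log2 early/late) at the Tbx15 start in each ESC profile, with squares for feeders and circles for 2i. In F121-6 and F121-9 the feeder squares lie between -2.38 and -2.17, below the 2i circles of the same lines, while 2i circles of the other lines range from -3.14 (Cas129) to 0.00 (V6.5).

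Lines in 2i also differed among themselves at Tbx15. The 2 profiles of Cas129 had -3.14 and -2.79, later than any feeder profile, those of F123 had -1.64 and -1.51, and F121 had -1.61. With 2i profiles alone the SD between the 5 ESC lines was 0.99 at Tbx15, 0.15 at Prrx1, 0.23 at Twist1, 0.31 at Twist2, 0.31 at Snai2 and 0.23 at Meox1. In MEFs the SD between embryos was 0.21 at Tbx15.

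A list of 38 other transcription factors, most of them of mesenchyme, was set beside the members, and 33 had a window at their start. Snai1, Zeb2, Tbx22, Hand1 and Runx2 had none. The list also held Tcf3, Tcf4 and Tcf12, which are not particular to mesenchyme. Of the 33, 17 were called earlier and 2 later in MEFs than in ESCs as deposited, and 8 earlier and 3 later after either scaling. For comparison, the autosomal windows called earlier and later as deposited made up 30.3% and 13.7%. Median-centred columns gave shares of 18.6% earlier and 28.4% later, while quantile-normalized columns gave 20.6% and 22.3%. The median difference of the list was 1.10, against 0.38 over all windows, and that of the 6 members 2.36. The members and the list were chosen with earlier results of these data known, so these medians describe the chosen genes alone. The 3 largest called differences were those of Osr1 (3.55 ± 0.15, adjusted p = 1.03e-11), a zinc finger factor of kidney and limb mesenchyme, Zeb1 (2.88 ± 0.21, adjusted p = 3.60e-09), a repressor of epithelial genes, and Foxc2 (2.87 ± 0.17, adjusted p = 2.69e-10), a forkhead factor of vascular mesenchyme. Osr1 had 0.30, 0.32, 0.24 and 0.10 in MEF embryos 1 to 4 and -3.52 to -3.06 in the 5 ESC lines, and Zeb1 1.75 to 1.89 in MEFs and -1.62 to -0.51 in ESCs. All 3 also passed after either scaling. The factors called later in MEFs were Tbx5, a T-box factor of heart and forelimb (-1.82 ± 0.17, adjusted p = 7.62e-08), and Pax1, a paired box factor of the sclerotome (-1.74 ± 0.16, adjusted p = 4.68e-08). Tbx5 had -0.32 to 0.27 in MEFs and 1.41 to 1.96 in ESCs.

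**Figure D5:**
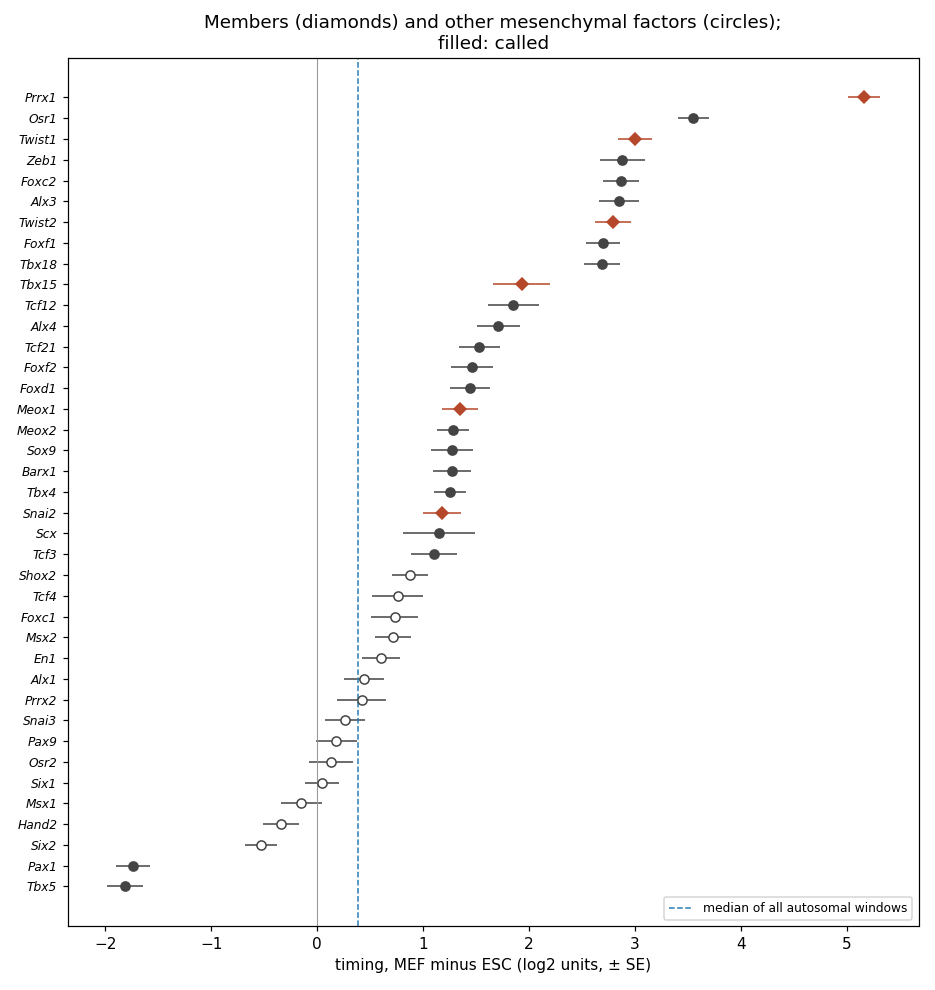
MEF minus ESC timing difference with its SE (x axis, log2 units) for the 6 members (diamonds) and 33 other listed factors (circles). Points are filled where called, and the median of all windows is dashed at 0.38. Prrx1 lies furthest to the right at 5.16, and Tbx5 and Pax1 at -1.82 and -1.74 are the 2 filled points left of 0.

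Between NPCs and ESCs 11 of the 33 were called earlier in NPCs and 0 later, with 21 at an unadjusted p below 0.05 in limma in either direction. Over all windows 16.4% were called earlier and 16.1% later, and 24940 of the 43941 had such a p. Between MEFs and NPCs 7 were called earlier and 5 later in MEFs as deposited, and 3 earlier and 7 later after either scaling. The shares of autosomal windows called in that comparison were 25.7% earlier and 7.64% later as deposited. They became 13.3% and 21.0% with median-centred columns, and 15.3% and 14.9% with quantile-normalized ones. On feeders 0 of the 33 were called earlier and 3 later than in 2i, or 1 after median centring, with 7 at an unadjusted p below 0.05. Of all windows 4.92% were called earlier and 7.86% later, or 6.24% later after median centring, and 12220 of the 43941 had such a p. For the alleles in ESCs, 129 was called earlier at 4 of the 33 and Cas at 4, against 13.2% and 11.9% of all windows. The largest were Foxf2, a forkhead factor of gut and palate mesenchyme (1.66 ± 0.12, adjusted p = 2.00e-07), Sox9, the master factor of cartilage (0.90 ± 0.09, adjusted p = 3.81e-06), Tcf21 (-1.12 ± 0.12, adjusted p = 7.35e-06) and Osr2 (-0.76 ± 0.10, adjusted p = 3.51e-05). In MEFs Sox9 (0.60 ± 0.10, adjusted p = 0.00109) and Shox2 (-0.53 ± 0.12, adjusted p = 0.00717) were called, and in NPCs limma called 0 of 33, with 5 at an unadjusted p below 0.05. Of all windows 5.5% were called with 129 earlier and 7.36% with Cas earlier in MEFs. In NPCs 4.71% were called, and 8547 of the 43941 had such a p. The allelic difference of Foxf2 was 0.03 to 0.35 in the 4 MEF embryos and 1.28 to 2.19 in the 5 ESC lines. The change of the allelic difference was called higher for 4 and lower for 6 of the 33 in MEF minus ESC, and higher for 2 and lower for 3 in NPC minus ESC. Over all windows these shares were 12.3% and 15.1% in MEF minus ESC, and 8.04% and 8.03% in NPC minus ESC.

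Genes elsewhere in the genome with the timing most like that of a member were found by the root mean square difference over 13 lines and embryos, among genes on another chromosome or more than 5 Mb away. For Prrx1 these were Lox, whose product cross-links collagen (0.36), and its neighbour Srfbp1 (0.39) on chromosome 18. For Twist1 they were Antxr2, an anthrax toxin receptor (0.28), and Sema3a, a secreted axon guidance factor (0.34), both on chromosome 5. For Twist2 they were Shc4 and Fam102b (0.32 each), for Snai2 the zinc finger gene Zfp386 (0.34) and the glutamate decarboxylase gene Gad2 (0.37), for Tbx15 the melanin synthesis gene Tyrp1 (0.41) and Erich3 (0.42), and for Meox1 the Integrator subunit gene Ints1 (0.21) and the calcium channel gene Cacna1h (0.22). The median over all genes was 3.57 against Prrx1 and 1.44 against Meox1. The 13 points share cell types and scaling sets, so the values describe likeness of profile alone.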

How the data were processed

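The authors deposited 1 table of allele-specific replication timing, whose values, read here as log2, are ratios of early to late signal per allele in 50 kb windows on mm10, per the file headers and the labels. The base of the logarithm, the smoothing, the assignment of reads to alleles and the depth are not given in the sources used here. The submitters' processing notes name Bowtie2, SAMtools and bedtools. Samples were grouped by their labels, and 0 per-sample columns were left unused. Timing (mean of both alleles) and the allelic difference were averaged over the profiles of a line or embryo and fitted over 43941 autosomal windows with limma (version 3.58.1, R version 4.3.3; two-sided tests, Benjamini-Hochberg over all windows), with 5 ESC lines, 2 NPC lines and 4 MEF embryos in 1 fit, so that NPCs borrow their spread from the other groups. A window was called at an adjusted p below 0.05 and a size of at least 1 (timing between cell types) or 0.5 (alleles, media). XEN and V6.5 entered no test. Gene positions and promoters came from RefSeq (GRCm38.p6). The fits were tested on simulated data.

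Named genes were the 6 members and the 2 genes most like each member. From the list of other factors, the 3 largest called MEF minus ESC differences in each direction were named. The 2 largest called allelic differences in each direction per cell type were named as well. Genes named inside a region were chosen after their values were seen. The members and lists were chosen with earlier results of these data known. Alternatives were median centring, quantile normalization, leaving out each line, embryo or profile, embryos 1 and 3 left out, female lines, 2i profiles, profiles as the unit, other size minimums, a gene table and NPCs against their parent lines.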

Additional observations from a re-analysis of the deposited data

Results flagged for a closer look

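At Tbx15 the Cas129 line, at -2.97, was far from the other 4 ESC lines (-1.70 to -1.21), with a gap to the nearest of 0.724 of the whole range. Cas129 was grown in 2i alone, while the values of F121-6 and F121-9 average feeders and 2i. With 2i profiles alone the other 4 lines ran from -1.61 to -0.24, and the gap was 0.498 of the range, which no longer stands out. Of 24 groups of lines or embryos examined this was the 1 that stood out, and chance would mark about 1 in 20.

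At Twist1 the 129 minus Cas difference itself differed between MEFs and ESCs by -0.69, by the test of that difference in limma. The embryos held -0.63 to 0.12 and the ESC lines 0.36 to 0.56, and the call was lost under 14 of 21 alternatives, over which the adjusted p ran from 0.00782 to 0.211.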

How the results depend on the processing

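Over 1098 recomputed values of single members, 38 calls were lost, 4 were gained and 0 called values changed sign. A further 32 values that were called neither as reported nor in the alternative changed sign, and their size was at most 0.58. Of 6 members, those called earlier in MEFs than in ESCs were 6 in every fit that left out 1 line or embryo, 4 after either scaling and 3 at 2 times the size minimum. For MEF minus NPC, 3 were called at 2 times the size minimum and 4 to 5 when 1 line or embryo was left out. For NPC minus ESC, 5 were called with no size minimum, 0 at 2 times the minimum and 2 to 3 when 1 line was left out. For the alleles in ESCs, 1 member (Twist1) was called with no size minimum. For the allelic difference in MEF minus ESC, 0 members were called after median centring, quantile normalization, at 2 times the size minimum, without embryos 1 and 3, with female lines only and with 2i profiles only, and 0 to 1 when 1 line or embryo was left out. The Tbx15 difference between media passed in all 14 alternatives run, at -1.72 to -1.33. Like-numbered profiles did not pair: over 55 pairs of groups their deviations correlated at -0.397 to 0.304 in timing, so not every profile was most like its own number. With profiles as the unit and a term for the replicate number, 6 members were called for MEF minus ESC, 4 for MEF minus NPC and 2 for NPC minus ESC. For feeders minus 2i, where profiles were the unit already, 1 was called. Over all windows the NPC allelic calls in the fit of profiles were 1335, against 2068 as reported. Repeat profiles of a line count as separate samples in that fit, so this change is not that of the replicate term alone. The share of all windows called was 44.0%, 33.3% and 32.5% for MEF minus ESC, MEF minus NPC and NPC minus ESC, against 73.5%, 53.4% and 51.6% with no size minimum and 18.3%, 10.6% and 9.19% at 2 times it. For the alleles in MEFs, NPCs and ESCs 12.9%, 4.71% and 25.2% became 2.23%, 1.31% and 7.50% at 2 times the minimum, and 21.3% in MEFs and 41.0% in ESCs with none. Without embryos 1 and 3 they were 4.46% in MEFs and 1.82% in NPCs, with female lines only 5.78% and 2.37%, without the F121-9 or the Cas129 NPCs 1.58% and 1.29% in NPCs, and in a fit of profiles with lines as random blocks 2.78% in NPCs. For the allelic difference in MEF minus ESC 27.4% became 9.52% at 2 times the minimum, 16.2% without embryos 1 and 3 and 16.3% with female lines only. For NPC minus ESC 16.1% became 7.38%, and 7.76% and 8.37% without either NPC line and 9.86% of genes in the gene table. For the media 12.8% became 5.76% at 2 times the minimum and 6.37% to 8.22% without 1 of 4 profiles (both 2i profiles of F121-6 and replicate 1 of F121-9 in either medium). The cause of these changes was not tested beyond the construction of the alternatives. Depth is unknown, and 2 NPC lines limit the NPC results.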

Other observations

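Compared with each other over 13 lines and embryos, the members closest in level were Snai2 and Tbx15, with a root mean square difference of 0.93, and the furthest apart were Twist1 and Meox1 at 5.31. The paralogues Twist1 and Twist2 differed by 3.75. This measure reads the level and not the course across cell types.

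Within 1000 kb of its start Prrx1 was among the latest windows in ESCs (rank 39 from the earliest of 41) and among the earliest in MEFs (rank 6 of 41). Tbx15 kept the same place, rank 9 of 39, in MEFs, NPCs and ESCs, and had rank 27 in XEN cells. At Snai2 the ranks were 31 in MEFs, 29 in NPCs, 30 in ESCs and 35 in XEN cells, of 41.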
